A study of Mus musculus with 22 samples.

Results

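The axon guidance ligands and receptors described here are the semaphorins, plexins, ephrins, Eph receptors, Slits, Robos, netrins and Unc5 receptors of the mouse, chosen by gene symbol. They number 66 of the 55367 gene symbols measured, and 64 of them had enough counts to be tested among 22409 tested genes. These members and the gene lists below were chosen with earlier results of these data known. Their contrasts with the background of all genes are therefore descriptions. Efna3 (14 counts over all control libraries and 3 over all diet libraries) and Epha6 (13 and 21) were not tested. RNA came from mouse liver cells under the label HSC, which usually stands for hepatic stellate cells. The 10 control libraries came from mice on a chow diet, with 3 libraries at zeitgeber time (ZT) 0, 2 at ZT6, 2 at ZT12 and 3 at ZT18. The 12 diet libraries came from mice fed CDA-HFD, a high-fat diet without choline and with defined amino acids that gives steatohepatitis and fibrosis, with 3 libraries at each time. All mice were 20 weeks old and no other treatment is named, ZT0 was lights on and ZT12 lights off. Feeding is given as 12 weeks from an age of 8 weeks, which adds up to that age; another field gives 6 months, which is longer than the mice had lived. The sources used here do not give the strain or sex of the mice or how the cells were isolated.

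Axon guidance proteins were named for steering nerve fibres, but the same ligand and receptor pairs guide and sort blood vessels, immune cells and epithelia. Semaphorins signal mainly through plexins, those of class 3 with neuropilins as co-receptors. Ephrins and Eph receptors are both bound to membranes and signal in both directions at cell contacts. Slits act on Robo receptors and netrins on Unc5 receptors, DCC and neogenin. In the liver, sinusoidal endothelium, stellate cells, bile duct cells and leukocytes each carry part of this set.

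Libraries held 19754805 to 41665623 counts in genes. Values are CPM, counts scaled to the size of each library, changes are log2 differences of diet minus control with their standard errors (SE), and a gene is called at a Benjamini-Hochberg adjusted p under 0.05 over all tested genes (edgeR, quasi-likelihood). Because the labels do not tie libraries to separate animals, the p-values cover only the spread between libraries, part of which may be technical. Principal component 1 (40.2% of the variance) separated the diets. On it, replicate 2 of control ZT0 (-46.65, other controls -126 to -95.79) lay nearest to the diet libraries. On the component after it, the lowest value was that of control ZT18 replicate 1 (-110.1). These are the pair of control libraries that stand apart.

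The label was checked against markers of the cell types that a liver preparation can hold. Markers of endothelium outweighed those of stellate cells in both diets. Per kb of exons, the 20 endothelial markers summed to a median of 7767 CPM in control and 455 with diet. The 20 stellate cell markers summed to 197 and 71.3. Under diet other lists, of differing sizes, had higher medians per kb than the endothelial list. These were T and NK (3958), macrophage (1500), cholangiocyte (1443), B and plasma (1327), neutrophil and dendritic (817) and hepatocyte (525). All 20 endothelial markers fell under the diet, with a median log2 change of -4.03, and their summed level of 23622 to 45856 CPM in control did not overlap the 1544 to 3637 CPM under diet. All 16 markers of T and NK cells rose (summed level 626 to 2686 CPM in control, 3392 to 8379 under diet), as did 11 of 12 of B and plasma cells (699 to 1211 and 1993 to 3723), 12 of 12 of cholangiocytes (380 to 995 and 1418 to 5285) and 9 of 15 of hepatocytes, 1 of which fell (270 to 457 and 712 to 1687). Of 16 macrophage markers 13 rose and 1 fell (615 to 3476 and 1706 to 4685). The highest control value came from replicate 2 of ZT6, which also had the highest value on component 2 (68.22), and the other 9 controls (615 to 1039) lay below every diet library. Of 14 markers of neutrophils and dendritic cells 12 rose (604 to 1377 and 1829 to 2649) while 2 fell. The stellate list had 4 higher and 6 lower of 20 (351 to 1285 and 212 to 605), the portal fibroblast and mesothelial list 2 higher and 8 lower of 12 (528 to 974 and 247 to 498), and the neural and Schwann cell list 2 higher of 8 tested (20.8 to 60.8 and 71.8 to 110.0). Of all tested genes 52.4% were called over all times, 27.5% higher and 24.9% lower, and the share called of the stellate list was near that. No gene of these marker lists was at 0 in every library of a diet. In RNA from a mixture, fewer cells of a type and less RNA per cell cannot be told apart. How far these marker lists account for the changes below was not tested.

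**Figure D1:**
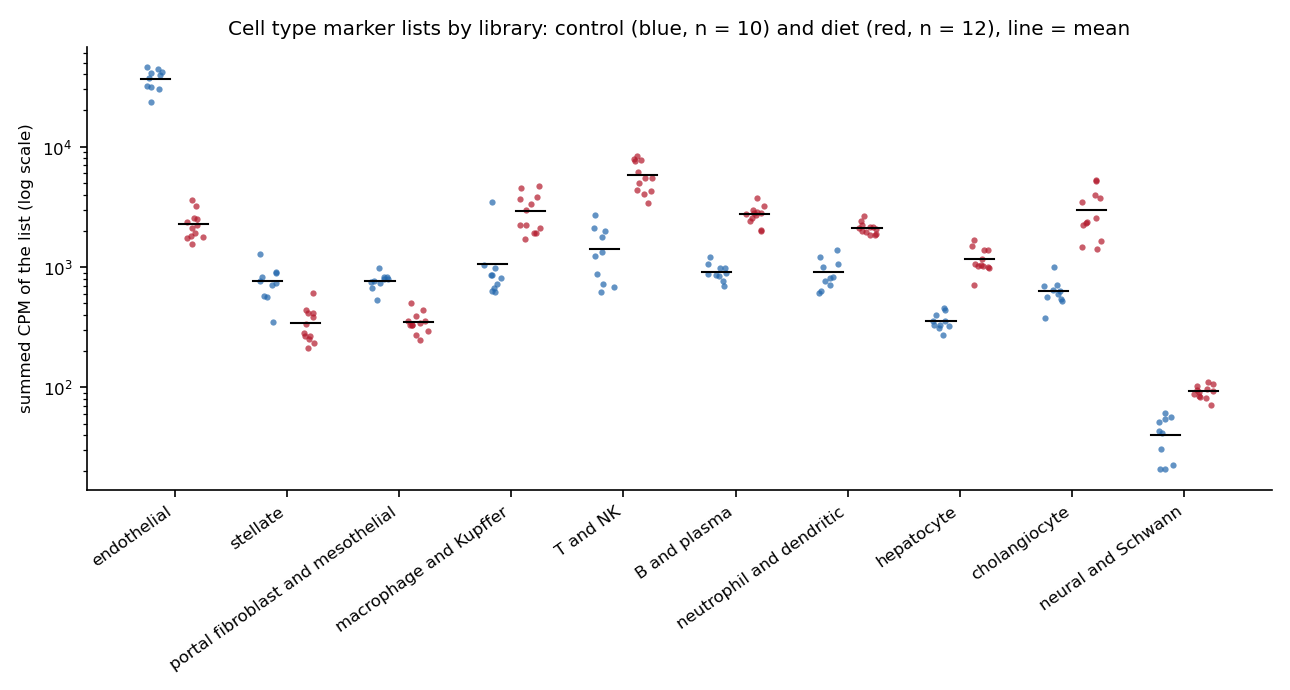
Summed CPM of 10 cell type marker lists in each library on a log scale, control in blue (n = 10) and diet in red (n = 12), with black lines at the means. The endothelial list is the highest of the 10 in control (23622 to 45856 CPM) and its libraries do not overlap those of the diet (1544 to 3637 CPM), while the T and NK list lies higher under diet.

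Over all times, 26 of the 64 tested members were lower and 12 were higher in the diet libraries, and 26 were not called. That is 59.4% called, against a background of 52.4% of all tested genes, so the share of members that changed was near the background. By direction, the background was 24.9% called lower and 27.5% called higher. The median log2 change of the members was -0.468, against 0.0797 over all tested genes, and it stayed at -0.468 with the 2 members that had a group at 0 counts set at their bound. Without the pair of control libraries named above, 24 were lower and 12 higher, and of all 22039 genes tested then 5554 were lower and 6409 higher. Scaled by library size alone, which shifts the median of all genes by 0.173, 25 members were lower and 17 higher, and of all called genes 62.6% were higher in place of 52.4%. Of the 25 members with a mean log2 CPM of at least 2, 17 were lower and 5 higher, with a median of -1.90. Among all tested genes of that level 38.0% were lower and 34.6% higher. In 17 members (26.6%) every diet library lay below every control library, against a background of 9.78% of genes, and in 4 (6.25%, background 7.35%) every diet library lay above.

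**Figure D2:**
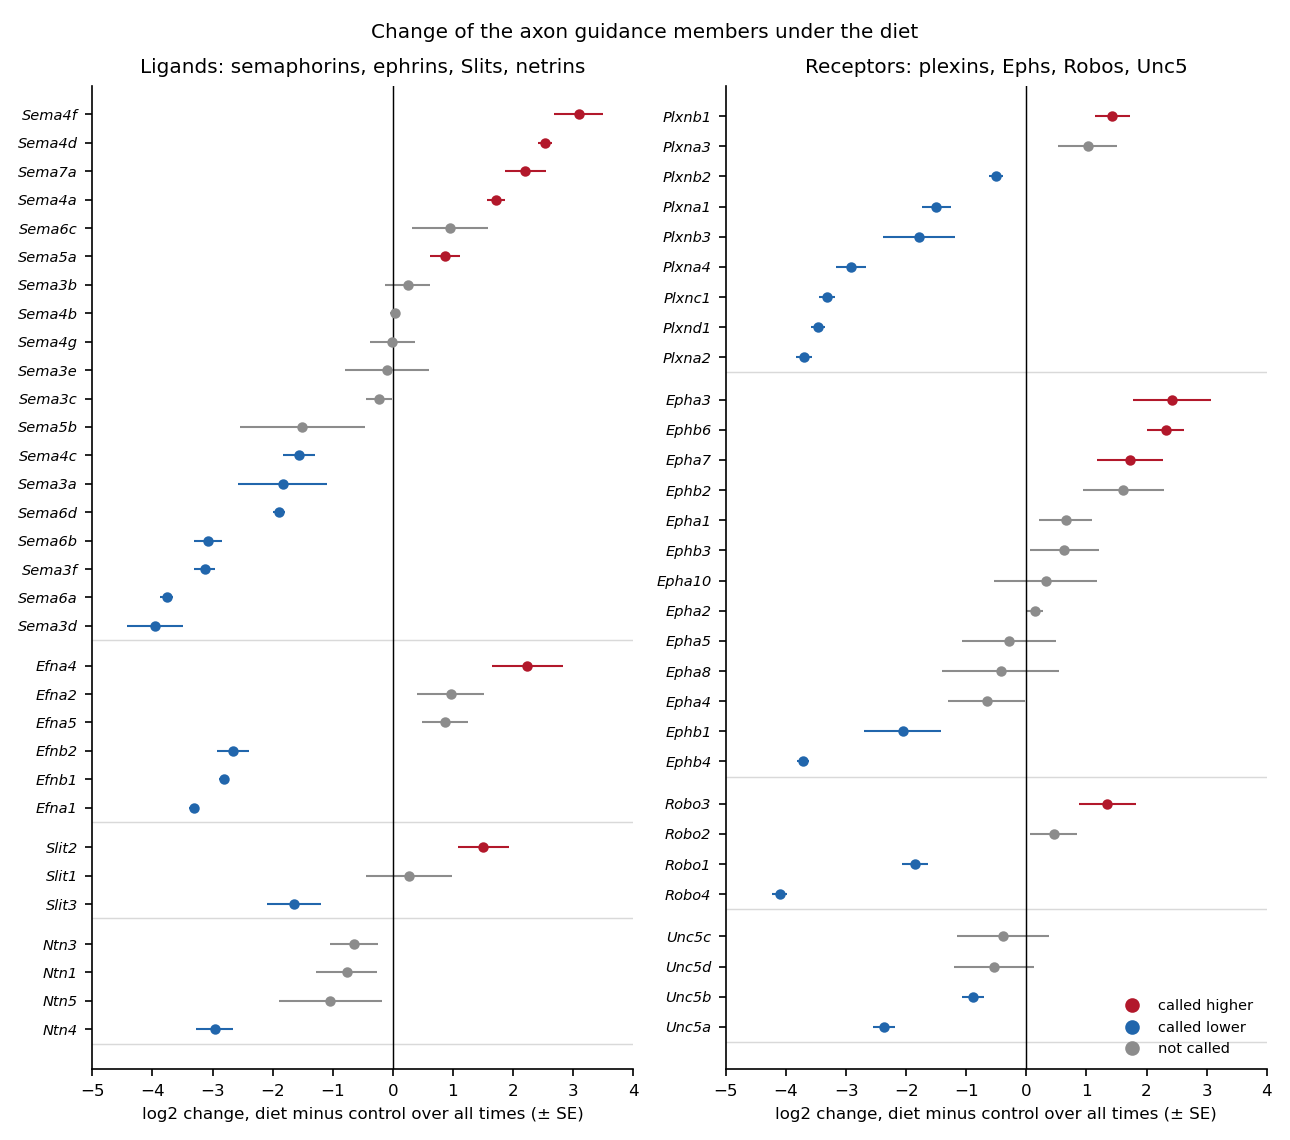
Log2 change of diet minus control over all times for the tested members, ligands on the left and receptors on the right, ordered within each family; points are estimates, bars ± 1 SE, blue called lower, red called higher, grey not called. Robo4 (-4.10) and Sema3d (-3.96) have the lowest values and Sema4f (3.09) the highest; Efnb3 and Sema3g, each with a group of libraries at 0 counts, are left out.

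Promoter sequence is shown for 5 members that the results below turn on. Robo4 and Plxnd1 were the most abundant Robo and plexin of the control libraries. For Efnb1, Ephb4 and Sema4b the diet difference was called as varying between times. In Ephb4 and Sema4b that call was just under the threshold (interaction adjusted p = 0.04984 and 0.04999). The stretches are the bases before the RefSeq start that lie outside the annotated gene (GRCm38.p6). Capitals mark matches on either strand to an E-box (CACGTG), a D-box (TTATGNAA), a nuclear receptor half-site (AGGTCA), an ETS motif (CAGGAAG) or a GC box (GGGCGG); adjoining GC boxes overlap in Sema4b.
Robo4, chr9:37401722-37401896, plus strand, 175 bases: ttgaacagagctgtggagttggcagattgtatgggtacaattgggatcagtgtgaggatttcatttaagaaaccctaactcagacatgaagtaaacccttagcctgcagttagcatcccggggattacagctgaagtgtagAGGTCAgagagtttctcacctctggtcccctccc
Plxnd1, chr6:115995006-115995255, minus strand, 250 bases: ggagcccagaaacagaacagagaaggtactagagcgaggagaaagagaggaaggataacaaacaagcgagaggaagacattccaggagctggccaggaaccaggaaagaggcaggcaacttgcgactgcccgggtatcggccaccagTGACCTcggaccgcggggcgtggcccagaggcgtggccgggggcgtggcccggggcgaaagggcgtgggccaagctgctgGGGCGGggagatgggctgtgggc
Efnb1, chrX:99135811-99136060, plus strand, 250 bases: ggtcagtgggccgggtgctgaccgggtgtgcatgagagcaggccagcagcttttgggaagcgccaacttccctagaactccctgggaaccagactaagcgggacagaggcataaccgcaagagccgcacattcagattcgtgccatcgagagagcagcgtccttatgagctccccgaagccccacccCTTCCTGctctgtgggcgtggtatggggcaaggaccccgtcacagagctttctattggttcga
Ephb4, chr5:137349859-137350108, plus strand, 250 bases: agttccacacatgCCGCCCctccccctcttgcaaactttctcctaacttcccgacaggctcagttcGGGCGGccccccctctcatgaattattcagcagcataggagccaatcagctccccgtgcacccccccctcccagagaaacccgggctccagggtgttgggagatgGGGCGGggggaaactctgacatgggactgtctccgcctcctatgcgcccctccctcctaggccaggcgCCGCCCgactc
Sema4b, chr7:80186620-80186840, plus strand, 221 bases: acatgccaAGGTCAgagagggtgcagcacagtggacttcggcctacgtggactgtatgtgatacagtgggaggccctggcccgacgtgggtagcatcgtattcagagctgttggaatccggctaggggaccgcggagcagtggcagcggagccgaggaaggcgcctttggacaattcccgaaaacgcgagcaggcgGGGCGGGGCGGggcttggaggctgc
None of these stretches holds the E-box or the D-box that clock factors can bind. The other RefSeq window of Sema4b, not shown, holds an E-box, and Sema4b also has an ETS motif that is not in the printed stretch. The bases of the Robo4 window inside the gene, not shown, hold an ETS motif. Windows of the 250 bases before the start were matched for 57 of the 66 members (73 windows). The E-box stood in 5.48% of these and in 6.02% of all 32851 windows, the D-box in 1.37% and 3.07%, the half-site in 13.7% and 14.0%, and the ETS motif in 11.0% and 10.8%. The GC box stood in 69.9% and 32.7%. A match is a description of the letters, not a bound site.

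Among the semaphorins, 8 of 20 fell and 5 rose (65.0% called). This and the family counts below stand against the background of all tested genes, 52.4% called, 27.5% higher and 24.9% lower, and the classes are too small for more than a description. Of the secreted class 3 members 4 of 7 fell and 0 rose. Of the membrane-bound class 6 members 3 of 4 fell and 0 rose, while 3 of the 6 class 4 members rose and 1 fell. Sema6a, a ligand of class A plexins (chromosome 18, 47235598 to 47368870 on GRCm38), had a lowest, median and highest level of 179, 247 and 339 CPM in control and 12.2, 18.4 and 28.4 CPM under diet. The groups lay far apart, at a log2 change of -3.76 ± 0.11 (adjusted p = 1.86e-16). Sema6d had 115, 175 and 201 CPM in control and 34.1, 50.2 and 54.2 under diet, also with no overlap (-1.90 ± 0.09), and Sema6b changed by -3.08 ± 0.23. Sema3f, which repels endothelial cells and axons through neuropilin 2, had 23.0, 50.9 and 65.9 CPM in control and 2.06, 6.18 and 8.93 under diet (-3.13 ± 0.18). Sema3d fell from 0.575, 9.48 and 12.0 CPM to 0.0431, 0.374 and 2.18 (-3.96 ± 0.47). Its groups overlapped through 1 control library, replicate 2 of ZT0, since the other 9 had at least 4.16 CPM. Sema4c (-1.56 ± 0.27) and Sema3a (-1.83 ± 0.74, adjusted p = 0.044) were lower at levels of a few CPM or less. Sema3g was called lower (adjusted p = 0.0062) at 74 counts over the control and 21 over the diet libraries; its diet libraries at ZT12 and ZT18 were all at 0, so no fold is given over all times. The Sema3a call ended when any of 13 libraries was left out (adjusted p from 0.0536 to 0.403), and without the pair of control libraries named above (0.0721). That of Sema3g ended without the ZT12 libraries (0.0677).

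Several semaphorins that rose are known from leukocytes. Sema4d, also known as CD100, which lymphocytes carry (chromosome 13, 51685529 to 51793747), had 20.6, 42.7 and 101 CPM in control and 210.5, 231 and 259 CPM under diet. The 12 diet libraries all lay above all 10 controls, at a log2 change of 2.53 ± 0.11 (adjusted p = 1.13e-13). Sema4a, made by dendritic cells, T cells and macrophages (chromosome 3, 88435959 to 88461182), had 24.7, 40.7 and 71.4 CPM in control and 108, 133 and 158 under diet (1.72 ± 0.15). Sema7a, a lipid-anchored ligand of plexin C1 and integrins, had 0.208, 1.87 and 3.90 CPM in control and 4.83, 6.88 and 13.9 under diet (2.21 ± 0.34), and Sema4f 0.0521, 0.901 and 4.58 against 5.87, 9.71 and 16.0 (3.09 ± 0.41). In both the groups did not overlap. Sema5a rose by less (0.87 ± 0.25, adjusted p = 0.00658, control range 1.79 to 15.8 CPM, diet range 3.54 to 17.2), and that call ended without the ZT6 libraries (adjusted p = 0.265). In the control libraries Sema4d and Sema4a were highest or nearly so in replicate 2 of ZT0 (101 and 69.8 CPM), where the summed T and NK cell markers were also highest (2686 CPM), and lowest at ZT6 (20.6 and 24.9 CPM of Sema4d), where those markers summed to 626 and 724 CPM. Other control libraries did not follow that order. The ZT18 sums (1763 to 2106.5 CPM) were above those of ZT0 replicates 1 and 3 (872 and 682 CPM), while Sema4d overlapped between them. The part of T and NK cells in these values was not tested. Sema4b (0.03 ± 0.08, adjusted p = 0.76) and Sema3c (-0.23 ± 0.21, adjusted p = 0.391) were not called. Scaled by library size alone, Sema4b was called higher (0.21, adjusted p = 0.0391), and without the ZT18 libraries its value was -0.18. The others not called were Sema3b, Sema3e, Sema4g, Sema5b and Sema6c.

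Ephrins carry the signal of a cell to its neighbours. Efna1, the most abundant of them, was at 182, 209 and 275 CPM in control (lowest, median and highest) and 12.6, 22.2 and 29.7 under diet. It fell by 3.31 ± 0.09 on the log2 scale (adjusted p = 7.72e-17; chromosome 3, 89271733 to 89281142). Efnb1, a transmembrane ephrin (chromosome X, 99136130 to 99148991), had 80.1, 119 and 175 CPM in control and 10.3, 16.8 and 23.8 under diet (-2.81 ± 0.08). Efnb2, the ephrin that marks arterial endothelium, had 3.41, 8.40 and 10.2 CPM against 0.383, 1.39 and 2.22 (-2.66 ± 0.26). For all 3 every diet library was below every control library. Efna4 was higher, from 0.371 ± 0.428 (SD, n = 10) to 1.68 ± 1.11 CPM (n = 12; 2.24 ± 0.60). Efna2 (0.97 ± 0.56, adjusted p = 0.159) and Efna5 (0.86 ± 0.38, adjusted p = 0.0646) were not called. Efnb3 had 37 counts over the control libraries and 38 over the diet libraries and was not called either.

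Slits and netrins are secreted ligands, and here they were rare. Slit2, a repellent made by stellate cells and fibroblasts among others, had 0.25, 1.29 and 2.91 CPM in control and 1.39, 2.80 and 12.9 under diet (1.51 ± 0.42, adjusted p = 0.00495). The groups overlapped, and without the ZT6 libraries it was not called (adjusted p = 0.0966). Slit3 went the other way, from 0.837, 2.80 and 6.46 CPM to 0.211, 0.80 and 4.57 (-1.64 ± 0.45, adjusted p = 0.00428), and Slit1 was not called. Ntn4, a netrin built into basement membranes, had 4.34, 6.79 and 13.3 CPM in control and 0.237, 0.783 and 2.64 under diet, with no overlap (-2.96 ± 0.31). Ntn1 (-0.77 ± 0.51, adjusted p = 0.222), Ntn3 and Ntn5 were not called.

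Of the 9 plexins, the receptors of semaphorins, 7 fell and 1 rose (88.9% called, background 52.4%), with a median log2 change of -1.79. Plxnd1, a vascular receptor of class 3 semaphorins (chromosome 6, 115954811 to 115995005), had 210, 354 and 496 CPM in control and 20.7, 31.4 and 40.4 under diet (-3.46 ± 0.12, adjusted p = 1.54e-15). Plxnc1, the receptor of Sema7a, had 121, 278 and 373 CPM against 17.2, 28.5 and 40.7 (-3.32 ± 0.13). Its lowest control value came from replicate 2 of ZT0, and the other 9 control libraries had at least 235 CPM. Plxna2, a receptor of class 6 and class 3 semaphorins, had 80.0, 112 and 143 CPM against 4.59, 8.11 and 13.1 (-3.70 ± 0.13). Plxna4 (-2.92 ± 0.25) and Plxna1 (-1.50 ± 0.24) also fell with no overlap between the groups. Plxnb2, a receptor of class 4 semaphorins that epithelia and macrophages carry too, changed least of the abundant plexins, with 110.0, 146 and 174 CPM in control and 75.5, 91.7 and 158 under diet. Those ranges overlapped, and the log2 change was -0.51 ± 0.11 (adjusted p = 0.000796). Plxnb1, the high-affinity receptor of Sema4d, rose from 1.04, 2.69 and 7.61 CPM to 3.67, 8.62 and 14.0 (1.43 ± 0.29, adjusted p = 0.000283), with overlap. Plxnb3 fell at about 1 CPM (-1.79 ± 0.59), a call that was lost without control ZT6 replicate 2 (adjusted p = 0.0588), without the pair of control libraries named above (0.0546) and without the ZT12 libraries (0.255). Plxna3 was not called (1.02 ± 0.48, adjusted p = 0.0857).

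Of the 13 tested Eph receptors, 3 rose, 2 fell and 8 were not called (38.5% called, below the background of 52.4%). Ephb4, the receptor of ephrin B2 that marks venous endothelium (chromosome 5, 137350109 to 137378669), had 98.2, 154 and 199 CPM in control and 5.74, 13 and 22.1 under diet. Its groups did not overlap, at a log2 change of -3.71 ± 0.10 (adjusted p = 1.22e-16). Epha2, the main receptor of ephrin A1 in epithelia and vessels, had 14.3, 25.4 and 46.6 CPM in control and 20.5, 29.8 and 51.0 under diet, and the ranges overlapped from 20.5 to 46.6 CPM (0.14 ± 0.14, adjusted p = 0.428). Scaled by library size alone it was called higher (0.32, adjusted p = 0.0472), and without the ZT18 libraries its value was -0.18. Ephb6, a receptor that lacks kinase activity and is found on T cells, rose from 0.67, 3.51 and 7.52 CPM to 7.41, 14.2 and 39.5 (2.32 ± 0.30, adjusted p = 1.56e-06). The lowest diet library was just under the highest control. Epha3 (0.362 ± 0.433 to 1.62 ± 0.667 CPM, 2.43 ± 0.65) and Epha7 (0.975 ± 0.715 to 3.20 ± 1.95 CPM, 1.73 ± 0.55) were higher at low levels. The Epha7 call ended without the ZT6 libraries (adjusted p = 0.099) and without those of ZT18 (0.0548). Ephb1 fell from 1.18 ± 1.00 to 0.249 ± 0.231 CPM (-2.06 ± 0.64), which was not called without control ZT6 replicate 1 (adjusted p = 0.0508) or without the ZT18 libraries (0.137). Ephb2 (1.61 ± 0.67, adjusted p = 0.0506), Ephb3, Epha1, Epha4, Epha5, Epha8 and Epha10 were not called.

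Robo4, the Robo receptor of endothelium (chromosome 9, 37401897 to 37415115), had the largest change of the well-measured members. Its lowest, median and highest levels were 704, 936 and 1255 CPM in control and 33.1, 52.4 and 98.6 CPM under diet. Every control library was above every diet library, at a log2 change of -4.10 ± 0.12 (adjusted p = 3.52e-16), close to the median of -4.03 of the endothelial markers. Robo1, a broadly expressed Slit receptor, fell from 6.61, 8.28 and 13.4 CPM to 0.992, 2.62 and 4.16 (-1.85 ± 0.21), with no overlap. Robo3 was higher at 1.14 ± 1.06 and 2.30 ± 1.03 CPM (1.35 ± 0.47, adjusted p = 0.0199). That call was lost without control ZT6 replicate 1 or control ZT12 replicate 2 (adjusted p = 0.0569 and 0.0648), and without the ZT12 or ZT18 libraries (0.0642 and 0.096). Robo2 was not called. Unc5a, a dependence receptor of netrin 1 (chromosome 13, 54949411 to 55006018), fell from 12.3, 19.3 and 22.6 CPM to 2.37, 3.04 and 5.99 (-2.37 ± 0.18), with no overlap. Unc5b, the netrin receptor of vessels, fell from 3.18, 6.46 and 12.8 CPM to 1.90, 3.39 and 5.65, with overlap (-0.89 ± 0.18, adjusted p = 0.000372). Unc5c and Unc5d were not called. Since no strand setting is stated, reads where exons of 2 genes overlap cannot be assigned with certainty. In called members the overlaps are 33 bases of Ephb4 with Zan, 34 of Unc5a with Hk3, 970 of Plxna1 with Gm26811 and 110 of Plxna4 with Plxna4os3. They are also 257 of Plxnb1 with Gm7628, 115 of Plxnc1 with Gm48718, 73 of Sema4a with Mir7011 and 334 of Sema4c with D430040D24Rik. Efna4 (168 bases with 4731419I09Rik) and Ephb1 (152 with Gm26846), both at low counts, overlap too. So do some members that were not called, such as Epha1 (236 with Zyx) and Ntn5 (519 with Sec1).

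**Figure D3:**
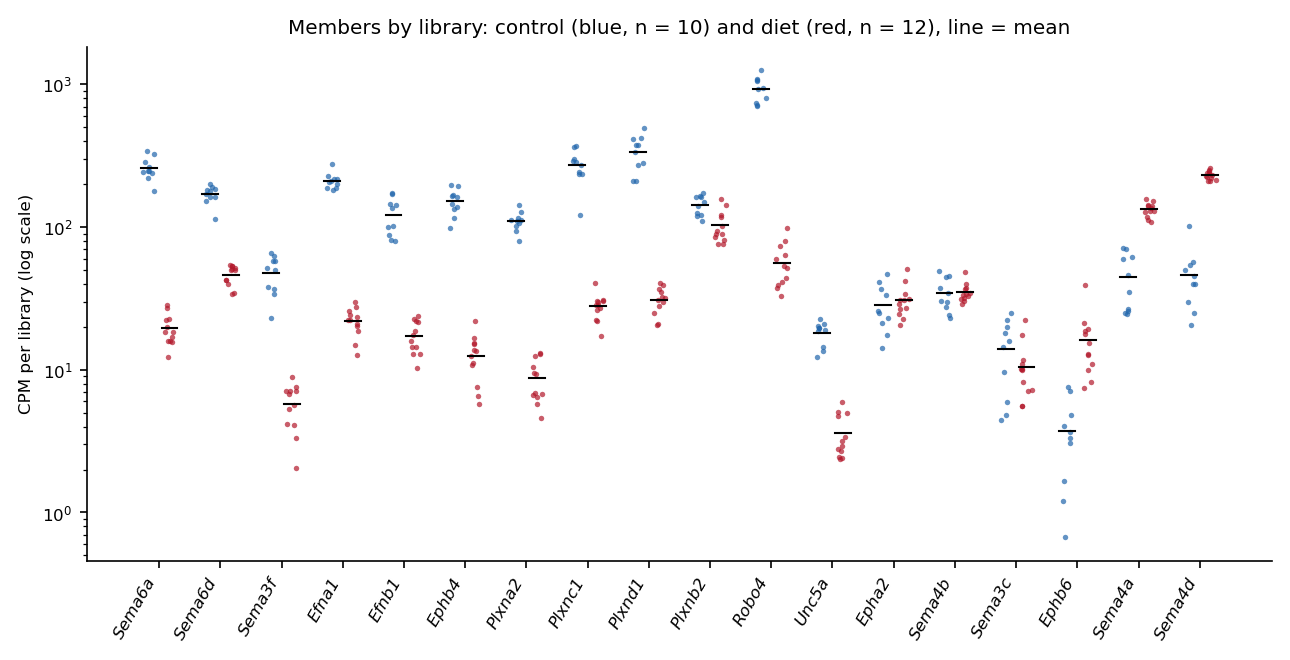
CPM of 18 members in each library on a log scale, control in blue (n = 10) and diet in red (n = 12), with black lines at the means. Robo4 goes from 704 to 1255 CPM in control to 33.1 to 98.6 CPM under diet, Epha2 and Sema4b overlap between the diets, and all diet values of Sema4d (210.5 to 259 CPM) lie above its control values.

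Known ligand and receptor pairs did not always move together. Both sides of ephrin B2 and Ephb4 fell (-2.66 and -3.71), as did Sema6a (-3.76) and its receptors Plxna2 (-3.70) and Plxna4 (-2.92), and Slit3 (-1.64) with Robo1 (-1.85). Slit2 rose by 1.51 while Robo1 fell. Robo4, of the same family as Robo1, also fell (-4.10). Efna1 fell by 3.31 while its receptor Epha2 was not called (0.14). Sema7a rose by 2.21 while Plxnc1 fell by 3.32. Sema4d rose by 2.53 as its receptor Plxnb1 rose by 1.43 and Plxnb2 fell by 0.51. Ntn4 fell by 2.96 and Unc5b by 0.89. Differences between the members of a pair were not tested.

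The order of the members by level changed with the diet. Levels were compared between genes per kb of exons. Sema6a led the semaphorins in control at 29.6 ± 5.43 CPM per kb (SD, n = 10), 34.4% of the family's summed level on average, ahead of Sema6d (16.1 ± 2.31), Sema3f (9.21 ± 2.73) and Sema4a (8.26 ± 3.61). The ranges of Sema6a and Sema6d did not overlap, while those of Sema3f and Sema4a did. Under diet Sema4d led at 30.1 ± 2.07 CPM per kb (n = 12), 39.1% of the family, followed by Sema4a (24.6 ± 2.88), with overlapping ranges (27.4 to 33.7 and 20.0 to 29.3). Sema4b (6.21 ± 0.946) and Sema6d (4.4 ± 0.70) came next. Among plexins, Plxnd1 (46.4 ± 13), Plxnc1 (32.6 ± 8.59) and Plxnb2 (18.5 ± 2.94) led in control, and neighbours overlapped. Plxnc1 overlapped Plxnb2 (up to 22.6) only through replicate 2 of control ZT0 (14.5). Under diet Plxnb2 (13.3 ± 3.45) held 56.9% of the family's level, and its range of 9.78 to 20.4 lay clear of that of Plxnd1 (2.84 to 5.54). Ephb4 was the leading Eph receptor in control (32.8 ± 6.88, 79.6% of the family) and Epha2 under diet (6.60 ± 1.80, 43.3%), where Ephb6 (4.29 ± 2.29) overlapped it. Efna1 led the ephrins in both diets (115 ± 14.6 and 12.0 ± 2.66), as Robo4 (176 ± 35.4 and 10.6 ± 3.73), Ntn4 (2.11 ± 0.789 and 0.278 ± 0.219) and Unc5a (4.35 ± 0.824 and 0.858 ± 0.303) did in their families. Slit3 had the highest level of the Slits in control (0.511 ± 0.283). Under diet Slit3 (0.187 ± 0.201) and Slit2 (0.164 ± 0.138) held 39.2% and 39.7% of the family on average, and the highest Slit3 value (0.752) came from 1 library. Under diet the ranges of Slit3 and Slit2, of Ntn4 and Ntn1, and of Unc5a and Unc5b overlapped.

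**Figure D4:**
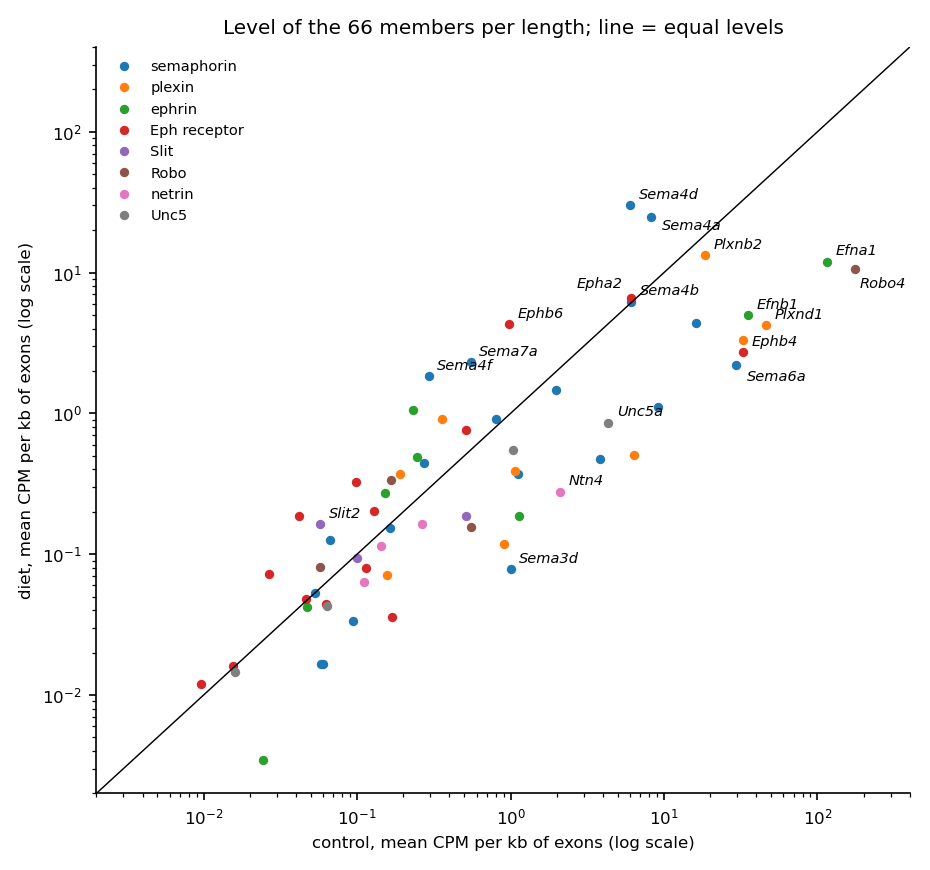
Mean level of the 66 members in control (horizontal axis) and under diet (vertical axis) in CPM per kb of exons, both on log scales, coloured by family, with a line at equal levels. Robo4 (176 and 10.6) and Efna1 (115 and 12.0) are far below the line, Sema4d (30.1 under diet) is above it, and Epha2 and Sema4b are on it.

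Partner genes of the same pathways were called in both directions, as all tested genes were (27.5% higher, 24.9% lower, 52.4% in all). Of 19 co-receptors and other ligands, 18 were tested, 7 fell and 5 rose (66.7% called, median -0.411). The neuropilins Nrp1, co-receptor of class 3 semaphorins and of vascular endothelial growth factor (2011 ± 317 CPM in control, 154 ± 23.4 under diet, log2 -3.70 ± 0.09), and Nrp2 (272 ± 44.2 and 18.9 ± 5.0, -3.90 ± 0.11) fell. The membrane proteins Ntng2 (-2.07 ± 0.12) and Rgmb (-2.04 ± 0.13), a netrin relative and a ligand of neogenin, fell as well. Cd72, the B cell receptor of Sema4d, rose from 13 ± 4.21 to 52.6 ± 13.9 CPM (2.06 ± 0.12), L1cam, an adhesion molecule of axons, by 2.62 ± 0.25, and Met, which associates with plexin B1, by 2.44 ± 0.51. The netrin receptors Dcc (-0.97 ± 0.79, adjusted p = 0.321) and Neo1 (-0.91 ± 0.42, adjusted p = 0.078) were not called. Of 52 intracellular effectors 26 fell and 14 rose (76.9% called, median -0.40). Srgap1, which acts below Robo receptors (-3.66 ± 0.20), and Dpysl3, a collapsin response mediator (-3.48 ± 0.14), were lower. Pak1, a kinase below Rac (3.13 ± 0.21), Crmp1, another collapsin response mediator (3.07 ± 0.42), and Srgap3 (2.43 ± 0.13) were higher.

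The diet difference was seen at each of the 4 times. At ZT0, 5 members were higher and 21 lower (background 13.5% and 16.5% of all tested genes), at ZT6 9 and 18 (14.8% and 15.3%), at ZT12 7 and 21 (14.3% and 15.3%) and at ZT18 9 and 19 (15.3% and 15.5%). The members called at a time were 40.6%, 42.2%, 43.8% and 43.8% of those tested, against backgrounds of 30.0%, 30.1%, 29.6% and 30.9%. Lower at all 4 times were 17 members (26.6%, background 10.1%): Sema3d, Sema3f, Sema6a, Sema6b, Sema6d, Plxna2, Plxna4, Plxnc1, Plxnd1, Efna1, Efnb1, Efnb2, Ephb4, Ntn4, Robo1, Robo4 and Unc5a. Higher at all 4 times were Sema4a, Sema4d, Sema4f, Sema7a and Ephb6 (7.81%, background 6.74%). The largest called differences at ZT0 were those of Sema4f (2.58) and Sema4d (1.83) among those higher, and Robo4 (-4.71) and Sema3d (-4.70) among those lower. At ZT6 they were those of Sema4f (4.31), Ephb6 (3.52), Sema3d (-4.52) and Robo4 (-3.92), and at ZT12 Sema4f stood at 3.67.

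Other large differences at ZT12 and ZT18 rested on few counts. At ZT12 Efna4 had 7 and 0 counts in the control libraries and 79, 32 and 36 under diet (3.80, adjusted p = 0.0434), a call that ended when any of 12 libraries was left out (adjusted p from 0.0501 to 0.275). Sema3g had 2 and 25 counts in control and 0 in all 3 diet libraries, at least 8.77-fold lower against a floor of 3 counts over the group (adjusted p = 0.0412, and from 0.0507 to 0.258 without any of 7 libraries). Plxnb3 had 12 and 9 counts in control and 1, 0 and 0 under diet (adjusted p = 0.0323, and from 0.101 to 0.165 without any of 3 libraries of ZT12). At ZT18 Robo3 had 0, 1 and 17 counts in control and 38, 30 and 75 under diet (adjusted p = 0.0254, and from 0.0756 to 0.103 without any of 3 libraries of ZT18). Epha7 had 15, 0 and 38 counts in control and 49, 223 and 185 under diet (adjusted p = 0.0453, and from 0.0501 to 0.111 without any of 14 libraries). Ephb1 had 29, 90 and 24 counts against 5, 6 and 2 (adjusted p = 0.0346, and from 0.0772 to 0.126 without any of 4 libraries of ZT18). Plxna2 was lower at ZT18 by 3.89 on the log2 scale at 94.1 to 113 CPM in control and 4.59 to 9.32 under diet.

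Few members were called over the time of day, and with 2 or 3 libraries per group a member not called may still vary. In control 5 of 64 were called over the 4 times (7.81%, background 5.74%), under diet 2 (3.12%, background 1.08%), and 3 had a diet difference that varied between times (4.69%, background 0.959%). Without control ZT0 replicate 2 these 3 tests called 1957, 663 and 1086 of 22124 genes, against 1287, 241 and 215 of 22409 in the main fit. Efnb1 was called in all 3 tests. In control it had 171, 136 and 144 CPM at ZT0, 145 and 175 at ZT6, 100.3 and 81.4 at ZT12, and 102, 87.7 and 80.1 at ZT18 (adjusted p = 0.00265). All values in the light phase were above all values of ZT12 and ZT18. Under diet it had 12.9, 10.3 and 14.4 CPM at ZT0, 22.7, 21.7 and 22 at ZT6, 23.8, 17.6 and 18.6 at ZT12, and 16.0, 12.8 and 14.3 at ZT18 (adjusted p = 0.0167). The diet difference was largest at ZT0 (-3.58) and smallest at ZT12 (-2.18; interaction adjusted p = 0.0208). The interaction was not called without control ZT12 replicate 2 (0.0546) or replicate 2 of diet ZT0 (0.0574), and the times under diet not without that diet library (0.059) or with only the diet libraries fitted (0.051). The summed endothelial markers averaged 35324, 44963, 38351 and 31347 CPM at the 4 times in control and 1743, 3026, 2124 and 2247 under diet, and their part in the time differences of Efnb1 was not tested.

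Ephb4 under diet had 7.54, 5.74 and 6.55 CPM at ZT0, 13.8, 22.1 and 16.6 at ZT6, 12.4, 10.9 and 11.2 at ZT12, and 15.2, 15.3 and 13.5 at ZT18 (adjusted p = 0.00367, and 0.746 with a 24 h cosine in place of separate times). Its ZT0 libraries were the lowest of the 12, and those libraries had 3 of the 5 lowest sums of endothelial markers (1544, 1759 and 1928 CPM, with 1767 at ZT12 and 1816 at ZT18). The part of that list in the Ephb4 values was not tested. In control it had 98.2 to 166 CPM at ZT0 and 117 to 199 at the other times (adjusted p = 0.198). The diet difference ran from -3.15 at ZT18 to -4.37 at ZT0 (interaction adjusted p = 0.0498). That call ended when any of 20 libraries was left out (0.0504 to 0.111), with another scaling (relative log expression, 0.0549) and with a 24 h cosine (0.916).

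Sema4b was not called over all times, but its diet difference varied between them. It had 34.5, 45.1 and 44.4 CPM at ZT0 in control, 29.9 and 30.5 at ZT6, 49.0 and 37.3 at ZT12, and 22.9, 27.6 and 24.4 at ZT18 (adjusted p = 0.0116). Under diet the means were 31.6, 32.1, 36.4 and 40.1 CPM (adjusted p = 0.583). It was higher under diet at ZT18 (0.68, adjusted p = 0.0017) and not called at ZT0 (-0.39), ZT6 (0.09) and ZT12 (-0.25; interaction adjusted p = 0.04999). The interaction call ended when any of 18 libraries was left out (0.0568 to 0.141) and without the pair of control libraries named above (0.0721). It also ended with RLE scaling (0.0556), scaling by library size alone (0.0583) and a 24 h cosine (0.538), and the call over times in control ended with a 24 h cosine (0.657).

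The other members called over the times in control were Sema4d, Sema4a and Sema3c. Sema4d had 54.6, 101 and 49.7 CPM at ZT0, 24.9 and 20.6 at ZT6, 39.9 and 29.9 at ZT12, and 45.3, 56.8 and 40.1 at ZT18 (adjusted p = 0.00147), so that ZT6 was lowest. Sema4a had 26.6, 69.8 and 24.9 CPM at ZT0, 25.9 and 24.7 at ZT6, 35.3 and 46.1 at ZT12, and 59.5, 62.1 and 71.4 at ZT18 (adjusted p = 0.0432). Sema3c, a secreted semaphorin of vessels and fibroblasts, had 15.9, 4.45 and 9.67 CPM at ZT0, 4.84 and 5.97 at ZT6, 14.5 and 18 at ZT12, and 24.9, 22.2 and 20.0 at ZT18 (adjusted p = 0.038). The calls of Sema4a and Sema3c ended when any of 17 and of 9 libraries was left out (adjusted p up to 0.142 and 0.165). With only the control libraries fitted, Sema4d (0.0789), Sema4a (0.244), Sema4b (0.106) and Sema3c (0.0894) were not called. The summed T and NK cell markers averaged 1413, 675, 1276 and 1959 CPM at the 4 control times, lowest at ZT6 as Sema4d and Sema4a were. The ZT0 mean rests on replicate 2 (2686 CPM), since the others had 872 and 682, near the 724 and 626 of ZT6. The T and NK sum was highest at ZT18, while Sema4d was highest at ZT0 on average. At ZT12 that sum was 1228 and 1323 CPM, beside 39.9 and 29.9 CPM of Sema4d. Under diet the sum averaged 7911, 5588, 5888 and 3943 CPM at the 4 times. The part of these markers in the differences was not tested. Under diet Sema4d (adjusted p = 0.999), Sema4a (0.998) and Sema3c (0.494) were not called over the times, and the diet difference of Sema4d just missed the threshold for varying between times (interaction adjusted p = 0.0507).

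**Figure D5:**
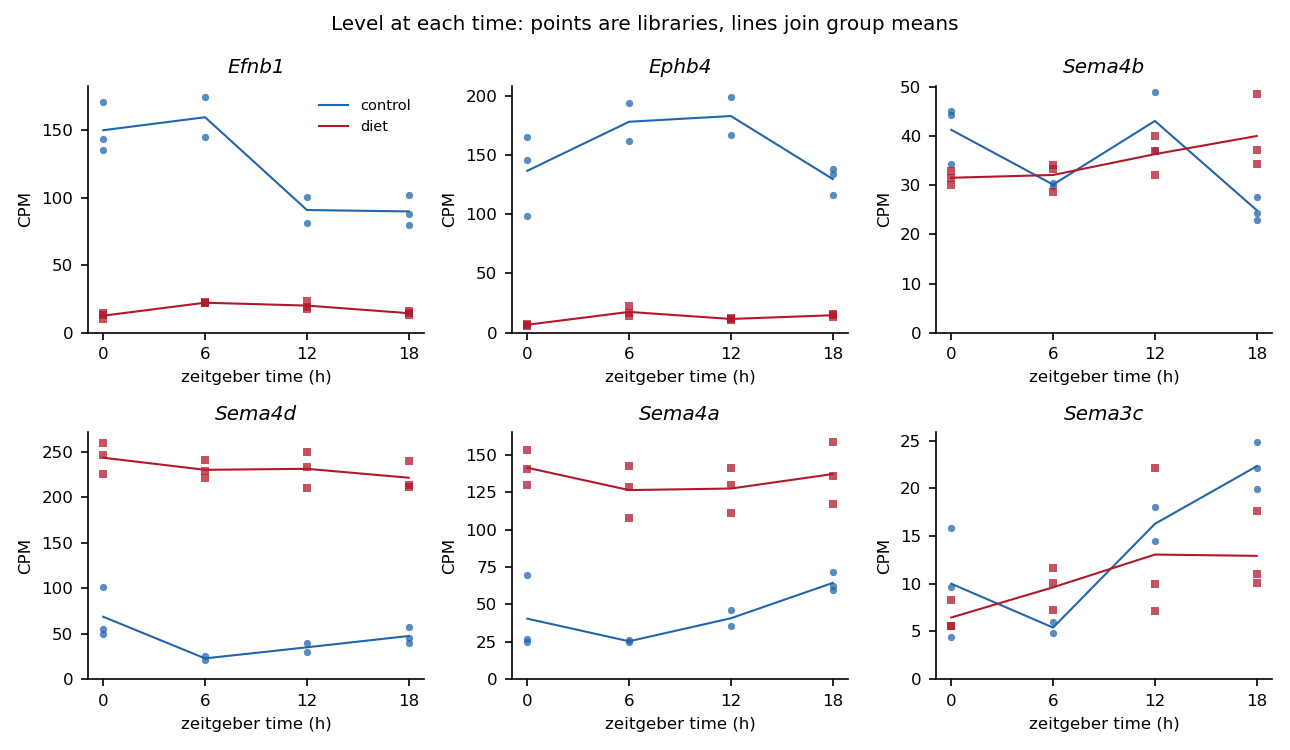
CPM of 6 members by zeitgeber time in hours, control in blue circles and diet in red squares, each point a library (2 or 3 per group) and lines joining group means. Efnb1 in control is at 136 to 175 CPM at ZT0 and ZT6 and at 80.1 to 102 CPM at ZT12 and ZT18, and Sema4b in control drops to 22.9 to 27.6 CPM at ZT18 while its diet values do not.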

How the data were processed

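The authors deposited raw counts of reads per gene, for 55367 symbols in 22 libraries, which were made with STAR 2.7.9a on GRCm38 and HTSeq (submitters' processing notes). The deposited normalised signal was made with DESeq2 per the same notes. Turned back into whole reads (tolerance 0.001), 100.0% of its values equalled the table's counts. Tests on these reads called the same number of genes (11748), as identical counts must, so that number is no separate check. Strand setting, annotation and cell isolation: not given in the sources used here.

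The test was run in R 4.3.3 (edgeR 4.0.16, limma 3.58.1): filterByExpr over the 8 groups, TMM scaling, glmQLFit and glmQLFTest on 1 model of 8 group means. Contrasts were diet minus control over all times and at each time, F tests over times within each diet, and the diet by time interaction. SEs are the log2 change over the square root of F. Log2 CPM used a prior count of 2. The script was tested on simulated data. No pair of replicates agreed within counting error (lowest chi-square 17.48 per degree of freedom).

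Members were chosen by symbol, and the members and lists were chosen with earlier results of these data known. Named were members called over all times with the same sign at each time and a mean log2 CPM of at least 2 (up to 8 higher and 12 lower), 2 higher and 2 lower at each time, up to 8 per F test, and the most abundant per family and diet; other members are given with their families. Exon lengths and coordinates are from GENCODE M21 (GRCm38, 1-based). Alternatives were RLE or library-size scaling, DESeq2 1.42.0, no filter, a mean CPM of at least 5, 24 h cosine terms, a replicate block, only the groups compared, and leaving out each time or library. Leaving out both control libraries that stand apart was chosen after seeing the data.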

Additional observations from a re-analysis of the deposited data

Results flagged for a closer look

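For 3 members the diet difference was called as varying between the 4 times in the interaction test of edgeR. Efnb1 had an adjusted p of 0.0208, with differences of -3.58, -2.85, -2.18 and -2.64 at ZT0, ZT6, ZT12 and ZT18. Ephb4 had an adjusted p of 0.04984, with differences of -4.37, -3.35, -3.99 and -3.15. Sema4b had an adjusted p of 0.04999, with differences of -0.39, 0.09, -0.25 and 0.68. The groups of 2 or 3 libraries were too small for a formal outlier test within a group. Control ZT0 replicate 2 did differ more from replicates 1 and 3 (chi-square per degree of freedom 87.95 and 81.24) than those 2 from each other (23.46). Without that library the interaction called 1086 of 22124 genes, against 215 of 22409 in the main fit. Leaving out each library in turn ended the Efnb1 call for 2 of 22 libraries, the Ephb4 call for 20 and the Sema4b call for 18. The Ephb4 and Sema4b calls also ended with RLE scaling (adjusted p = 0.0549 and 0.0556) and with the replicate block (0.0682 and 0.0686). With a 24 h cosine they ended as well (0.916 and 0.538).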

How the results depend on the processing

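Of 66 pairs of a member and a comparison, 41 kept their direction and their side of the threshold under every alternative run, and 25 did not under 1 or more. With a mean CPM of at least 5, 7 members were higher and 16 lower over all times, because fewer members were tested. Of all 10804 genes tested at that level, 4307 were higher and 3915 lower. Times within control gave 13 calls without a filter, 8 with DESeq2 and 1 with only the control groups. Of all genes, those settings called 2866 of 46151, 2862 of 22409 and 241 of 19324, and the main fit 1287 of 22409. Times within diet gave 4 with library size only, 11 without a filter, 6 with DESeq2, 1 with the cosine terms and 1 with only the diet groups. In that order these settings called 561, 1500, 953, 24 and 418 of all genes, and the main fit 241. Genes tested were 22409, but 46151 without a filter and 18850 with only the diet groups. The interaction gave 1 with RLE scaling, 16 without a filter, 7 with DESeq2, 1 with the replicate block, 1 with the cosine terms and 5 without both control libraries that stand apart. In that order these settings called 207, 2085, 1275, 123, 40 and 1004 of all genes, and the main fit 215. Genes tested were again 22409, but 46151 without a filter and 22039 without those control libraries. Except where the construction shows it, the cause was not tested. Leaving out each library in turn gave 11 to 14 members higher and 24 to 26 lower over all times. It gave 3 to 6 higher and 20 to 22 lower at ZT0, 5 to 10 and 16 to 18 at ZT6, 5 to 8 and 16 to 22 at ZT12, and 6 to 11 and 17 to 20 at ZT18. It gave 3 to 7 calls within control, 1 to 5 within diet and 0 to 6 in the interaction. Among all tested genes those 3 tests gave 790 to 1957, 96 to 663 and 76 to 1086 calls. The diet difference over all times gave 5726 to 6340 of all genes higher and 5194 to 5614 lower (22003 to 25918 tested). At ZT0 all genes gave 2375 to 3257 higher and 2999 to 3837 lower, and at ZT6 2242 to 3494 and 2648 to 3527. At ZT12 they gave 2114 to 3384 higher and 2545 to 3536 lower, and at ZT18 2911 to 3628 and 3030 to 3577. Without the ZT18 libraries the uncalled values of Epha2 (-0.18) and Sema4b (-0.18) turned sign. That of Sema4b ran from -0.0122 to 0.09 when each library was left out, and was below 0 without control ZT12 replicate 2 (-0.0122) or diet ZT18 replicate 3 (-0.006).

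Replicate numbers did not pair the libraries: 71 same-numbered pairs had correlations of -0.143 to 0.138, and 3 of 22 libraries correlated best with their own number. With the replicate block 12 members were higher and 26 lower over all times, and of all 22409 genes 6010 were higher and 5490 lower. In that fit Epha7 at ZT18 (adjusted p = 0.0589), Ephb4 (0.0682) and Sema4b (0.0686) in the interaction were not called. At levels under about 1 CPM, counts near 0 per library limit what could be detected.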
